A study of Homo sapiens with 6 samples.

Results

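The RAB proteins are the largest branch of the RAS superfamily of small GTPases. In its GTP-bound form each RAB sits on particular membranes and recruits the tethers, motors and fusion factors that move a vesicle to its target. In its GDP-bound form it is kept soluble by a dissociation inhibitor. In neuroendocrine cells, the cell type that Merkel cell carcinoma (MCC) resembles, RABs are best known for carrying secretory granules to the plasma membrane. IGF2 mRNA-binding protein 3 (IGF2BP3, also called IMP3) is an oncofetal protein that binds mRNAs in the cytoplasm and affects their stability and translation.

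The RAB mRNAs were chosen by name. They are the protein-coding genes of the count table whose symbol is RAB followed by a number and an optional letter, which gave 63 of 60655 listed genes. They were read in RNA immunoprecipitation sequencing (RIP-seq) of WaGa cells, an established MCC cell line that carries Merkel cell polyomavirus, labelled wild type and untreated. RNA that came down with an IGF2BP3 antibody (IGF2BP3 IP, n = 3) was compared with RNA that came down with IgG as negative control (IgG IP, n = 3), so every value comes from one cell line. The family was picked with this comparison already known, in which *RAB8A* was enriched. The fold changes and *P* values below therefore describe the members, and none of them is independent evidence. Counts give the share of an mRNA in a library. Both IPs are of the same untreated cell line, so a fold change compares the antibodies and not cells of different state. No input RNA was analysed here, so the level in either IP is not a measure of the cellular level. Pull-down per molecule was not measured.

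Library totals ran from 9758759 to 14886414 counts on genes, and RAB mRNAs made up 0.393% to 0.435% of them. All 10 MCC and neuroendocrine markers looked at were found in every library, with at least 443 counts each, among them *KRT20* at 430.4 to 633 TPM (a level that accounts for transcript length). *PTPRC*, *CD3E* and *KRT14*, markers of lymphocytes and keratinocytes, had 0 counts in all 6 libraries, and *KRT5*, *PECAM1*, *COL1A1* and *COL1A2*, markers of keratinocytes, endothelium and fibroblasts, had at most 11, 8, 2 and 2 counts. Both replicate 1 libraries stood apart from replicates 2 and 3. Among the tested RAB mRNAs, 39 of 46 deviated in the same direction in replicate 1 of both groups.

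Several members with larger fold changes had a close relative that moved little. *RAB8A* and *RAB1B*, the 2 enriched members, and *RAB3B*, which did not pass the main test, act in delivery to the plasma membrane, in transport from the endoplasmic reticulum (ER) to the Golgi and in regulated exocytosis. They were 1.77, 1.52 and 1.64 times as high in the IGF2BP3 IP as in the IgG IP. Their relatives *RAB8B*, *RAB1A* and *RAB3A* were at 0.926, 0.897 and 0.985 times the IgG IP level. *RAB3B* has further tested relatives that did not stay near 1. *RAB3D* was at 1.39 times the IgG IP level with groups that did not overlap, and *RAB3C* at 0.704 times from only 4 to 14 counts per library. *RAB36*, at 1.57 times the IgG IP level and also not past the main test, has no relative of the same number. The 30 coding bases that start at the phosphate-binding loop, the part of the protein that holds the nucleotide, are shown for these pairs because this loop is conserved throughout the family. Capitals mark the bases that differ from the relative in the same pair. The sequences are from GENCODE version 44 transcripts, 5′ to 3′, with GRCh38 positions.

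RAB8A (chr19:16111944-16111973, plus strand): ggGgactcgggggtGggGaagacctgTGtc
RAB8B (chr15:63189667-63189696, plus strand): ggCgactcgggggtAggCaagacctgCCtc
RAB1B (chr11:66271825-66271854, plus strand): ggcgactcaggCgtGggCaagtcAtgcctG
RAB1A (chr2:65104749-65104778, minus strand): ggcgactcaggGgtTggAaagtcTtgcctT
RAB3B (chr1:51977004-51977033, minus strand): ggcaacagcagTgtTggcaagacCtccttc
RAB3A (chr19:18202627-18202656, minus strand): ggcaacagcagCgtGggcaagacGtccttc

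Even here the relatives differed at 5, 5 and 3 of the 30 bases. The coding sequences were 75.0% identical between *RAB1A* and *RAB1B* and 76.5% identical between *RAB3A* and *RAB3B*. No stretch of 75 bases was shared by the canonical transcripts of these pairs. Over all 1953 pairs of members, such stretches were found in 3, those between *RAB6A*, *RAB6C* and *RAB6D*. *RAB6C* and *RAB6D* had at most 3 and 8 counts in a library against at least 3653 on *RAB6A*, so the division of reads among these 3 is uncertain.

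The cells contained a broad set of RAB mRNAs. *RAB11A*, which acts on recycling endosomes, had the highest level in the IgG IP, 418 ± 89.2 TPM (SD, n = 3). Its libraries were at 315, 468 and 472 TPM, all above every library of the next gene. That gene was *RAB2A*, active between ER, Golgi and lysosomes, at 173 ± 27.8 TPM. *RAB6A* of the Golgi followed at 166 ± 28.0 TPM, *RAB10* of plasma membrane delivery at 129.6 ± 22.9 TPM and *RAB5A* of early endosomes at 118 ± 21.6 TPM. *RAB2A* and *RAB6A* changed places between libraries, while *RAB6A* was above *RAB10* and *RAB10* above *RAB5A* in all 3 IgG IP libraries, although their ranges overlapped between libraries. In counts, which are not corrected for length, the lead of *RAB11A* was not seen in every library. It had 3322 in IgG IP replicate 1 against 3660 for *RAB10* and 3653 for *RAB6A*, and was above both in replicates 2 and 3. *RAB8A* and *RAB8B* were close to each other in the IgG IP, at 22.5 ± 4.14 and 23.8 ± 2.68 TPM. In the IGF2BP3 IP they were at 45.9 ± 6.47 and 23.6 ± 1.26 TPM.

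**Figure D1:**
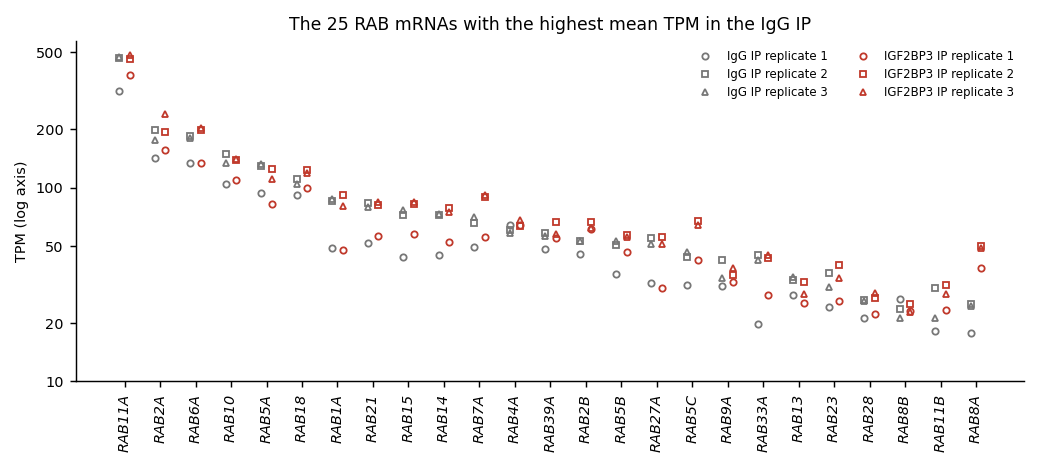
TPM (log axis) of the 25 RAB mRNAs with the highest mean in the IgG IP, ordered by that mean, with 1 point per library, grey for IgG IP and red for IGF2BP3 IP, and a marker shape per replicate. *RAB11A* lies at the top with 315 to 472 TPM in the IgG IP, replicate 1 is the lowest library of a group for many genes, and for *RAB8A* at the right end the red points, from 38.4 TPM, lie above the grey points, up to 25.2 TPM.

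An expression filter left 46 of the 63 members for testing. The other 17 were *RAB17*, *RAB19*, *RAB20*, *RAB24*, *RAB31*, *RAB32*, *RAB34*, *RAB37*, *RAB38*, *RAB40A*, *RAB41*, *RAB42*, *RAB43*, *RAB44*, *RAB6C*, *RAB6D* and *RAB7B*. They had at most 24 counts in any library, the highest being *RAB34*. *RAB20*, *RAB31*, *RAB38*, *RAB41*, *RAB42* and *RAB7B* had 0 counts in all 6 libraries.

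Counts were normalized to CPM (counts scaled to the library size, here after TMM normalization), and an mRNA was called enriched at a fold change of at least 1.5 with a Benjamini-Hochberg adjusted *P* under 0.05 over all 14507 tested genes (edgeR quasi-likelihood test). Of the 46 tested members, 2 were enriched, *RAB8A* and *RAB1B*, which is 4.35% beside 1.16% of all tested genes. None was lower beside 0.0% of all genes. At an unadjusted *P* under 0.05, 6 members were higher and 1 was lower by edgeR, beside 9.72% and 3.1% of all tested genes. By DESeq2, which also called 0 lower, the numbers were 6 and 2 beside 8.13% and 2.64% of the same genes. The median log2 fold change of the members was -0.03, against -0.01 over all tested genes. Most members moved little, and 37 of 46 lay within 0.25 of 0 on the log2 scale. All 3 IGF2BP3 IP libraries lay above all 3 IgG IP libraries for 8 members (17.4%, beside 12.0% of all tested genes) and below them for 4 (8.70%, beside 8.69%). The same contrast chose the family, so nothing is read from these shares.

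**Figure D2:**
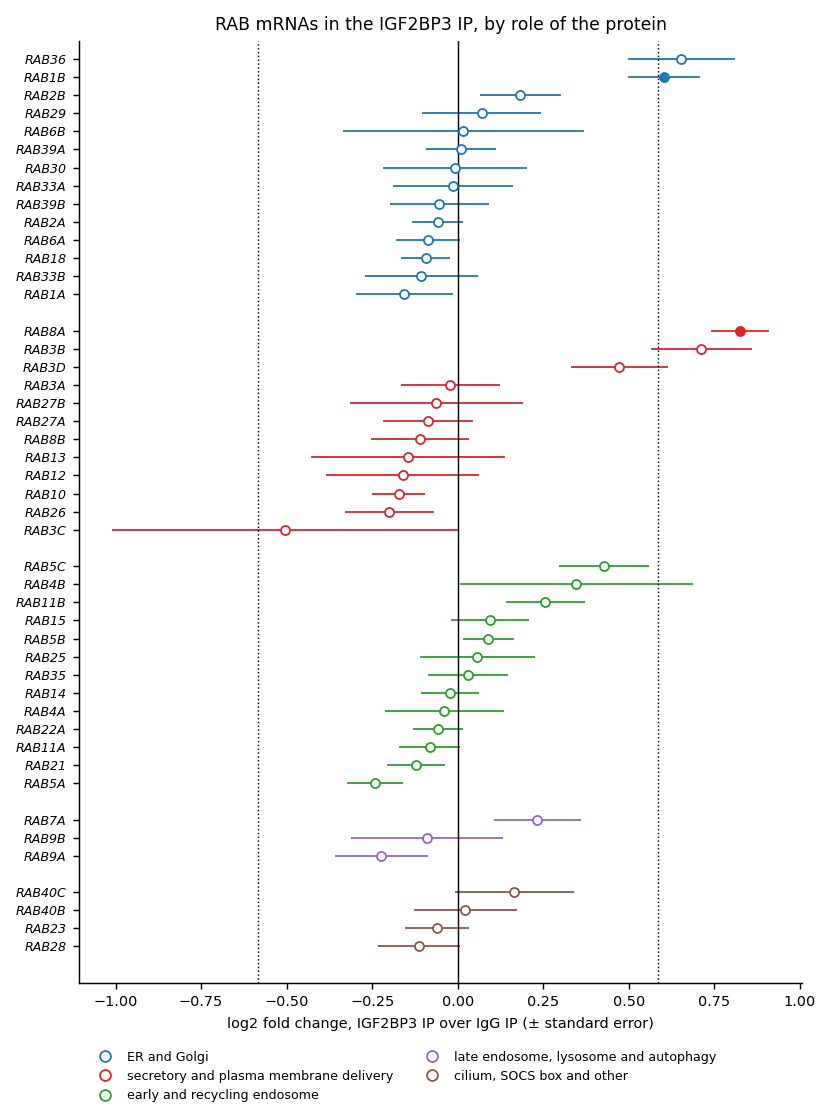
Fitted log2 fold change of each tested RAB mRNA in the IGF2BP3 IP over the IgG IP, with bars of 1 standard error, grouped and coloured by the role of the protein. Filled points are the 2 enriched mRNAs, *RAB1B* and *RAB8A*, dotted lines mark a 1.5-fold change in either direction, and most points lie close to the solid line at 0.

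Secretion and delivery to the plasma membrane was the role of 12 tested members, and 3 of these had positive fold changes. The largest was that of *RAB8A*, whose protein carries vesicles from the Golgi and recycling endosomes to the plasma membrane and to the cilium. The gene (ENSG00000167461.12) spans 16111889 to 16134234 on the plus strand of chromosome 19 (GRCh38) and has 8 exons in its canonical form. In IgG IP replicates 1 to 3, *RAB8A* was at 48.1, 50.5 and 49.4 normalized CPM, from 444, 754 and 613 counts. In the IGF2BP3 IP it was at 81.4, 90.5 and 90.5 CPM, from 970, 1198 and 1114 counts. The groups were far apart, and the IgG IP libraries were nearly equal to each other. The log2 fold change was 0.82 (standard error 0.09, edgeR adjusted *P* = 0.0058), which placed *RAB8A* at rank 12 of all tested genes by *P* value.

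The call of *RAB8A* held with DESeq2 (adjusted *P* = 2.1e-10), with the replicate block (3.9e-09) and with a correction for GC content (log2 fold change 0.74, adjusted *P* = 0.011, edgeR). It was lost when IgG IP replicate 3 was left out (log2 fold change 0.83, adjusted *P* = 0.052) and when IGF2BP3 IP replicate 2 was left out (0.80, adjusted *P* = 0.052). Those fits, in the order given, called 7 and 0 of all tested genes enriched. With limma-trend on log2(TPM + 1), which called 0 of all tested genes, the difference was 1.00 and the adjusted *P* 0.57. A lncRNA on the other strand, ENSG00000269243, covers 39.8% of the exon bases of *RAB8A* and had 6 to 15 counts per library.

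*RAB8B*, close in sequence and in function to *RAB8A*, showed no such shift. It was at 79.1, 65.1 and 65.3 CPM in the IgG IP and at 76.8, 64.1 and 52.9 CPM in the IGF2BP3 IP. The groups overlapped, and the log2 fold change was -0.11 with a 95% interval from -0.43 to 0.21. Within a library, the log2 ratio of *RAB8A* to *RAB8B* was -0.72, -0.37 and -0.40 for the IgG IP and 0.08, 0.50 and 0.78 for the IGF2BP3 IP. This ratio of counts, which is not corrected for length, did not overlap between the groups and was higher for the IGF2BP3 IP.

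The RAB3 proteins sit on secretory and synaptic vesicles and control their calcium-triggered release. *RAB3B* (ENSG00000169213.7, chromosome 1, 51907956 to 51990700, minus strand) was at 40.4, 46.5 and 47.2 CPM in the IgG IP and at 58.4, 88.1 and 73.4 CPM in the IGF2BP3 IP. The groups did not overlap, but the IGF2BP3 IP libraries were widely spread. Its log2 fold change was 0.71 (standard error 0.15) and its edgeR adjusted *P* of 0.059 lay just outside the threshold. It was called with DESeq2 (adjusted *P* = 0.0018), with the replicate block (3.6e-07) and without IGF2BP3 IP replicate 1 (log2 fold change 0.85, adjusted *P* = 0.013).

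*RAB3D*, the form typical of exocrine and endocrine granules, was at 18.5, 24.8 and 25.9 CPM in the IgG IP and at 29.7, 34.1 and 32.6 CPM in the IGF2BP3 IP. These groups did not overlap either, and the log2 fold change was 0.47 (standard error 0.14), under the 1.5-fold minimum. *RAB3A*, the main form of neurons, was at 27.9, 33.0 and 36.8 CPM in the IgG IP and 27.3, 36.4 and 32.7 CPM in the IGF2BP3 IP, with overlapping groups and a log2 fold change of -0.02. That direction turned to 0.02 with library totals in place of TMM, and to 0.08 when either IgG IP replicate 3 or IGF2BP3 IP replicate 1 was left out. *RAB3C* had the lowest fitted log2 fold change of the members, -0.51, from only 4 to 14 counts per library and with a standard error as large, 0.51.

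The other members of this role group lay between -0.20 and -0.06. *RAB10*, which among other tasks brings the glucose transporter GLUT4 to the cell surface, was at 397, 378 and 369.6 CPM in the IgG IP and 344, 352 and 319.6 CPM in the IGF2BP3 IP. All of its IGF2BP3 IP libraries were lower, but the log2 fold change was -0.17 with an edgeR adjusted *P* of 0.39. *RAB26*, linked to secretory granules, was at -0.20 with overlapping groups. *RAB27A* and *RAB27B*, which dock secretory granules and exosome-bearing endosomes at the plasma membrane, were at -0.09 and -0.06.

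In the ER and Golgi group, 6 of 14 tested members had positive fold changes, with a median log2 fold change of -0.01. *RAB1B* (ENSG00000174903.16, chromosome 11, 66268590 to 66277492, plus strand) was at 27.6, 27.4 and 25.0 CPM in the IgG IP and at 42.9, 37.5 and 41.2 CPM in the IGF2BP3 IP. The groups were well apart, with a log2 fold change of 0.60 (standard error 0.10, edgeR adjusted *P* = 0.033) that lay just inside both thresholds.

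The call of *RAB1B* was the less stable of the pair of calls. It was lost without IgG IP replicate 2 or 3 (adjusted *P* = 0.14 and 0.15), without IGF2BP3 IP replicate 1 (0.050, log2 fold change 0.56) and without IGF2BP3 IP replicate 2 or 3 (0.14 and 0.20), all by edgeR. Those fits, in the order given, called 19, 7, 244, 0 and 23 of all tested genes enriched. Corrected for GC content, the log2 fold change of *RAB1B* was 0.39 and its edgeR adjusted *P* 0.18. *RAB8A* was then the sole enriched member (beside 0.559% of all genes). A pair of antisense lncRNAs, ENSG00000254452 and ENSG00000245156, cover 30.2% and 13.6% of the exon bases of *RAB1B* and had at most 6 and 14 counts in a library.

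*RAB1A*, which does the same work as *RAB1B* between ER and Golgi, was at 127, 161 and 159.9 CPM in the IgG IP and 108, 149.8 and 145 CPM in the IGF2BP3 IP. The groups overlapped, and the log2 fold change was -0.16 with a 95% interval from -0.48 to 0.16. The within-library log2 ratio of *RAB1B* to *RAB1A* was between -2.68 and -2.20 in the IgG IP and between -2.00 and -1.33 in the IGF2BP3 IP, higher by 0.76 on average. On the other strand, *CEP68* covers 22.9% of the exon bases of *RAB1A* and had 394 to 730 counts per library, so reads of the pair may be uncertain if strand was not used.

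*RAB36* (ENSG00000100228.13, chromosome 22, 23145366 to 23165663, plus strand) encodes a less studied relative of *RAB34*. It was at 10.3, 11.0 and 12.7 CPM in the IgG IP and 15.0, 20.2 and 18.2 CPM in the IGF2BP3 IP. No library of one group reached the other group, and the log2 fold change was 0.65 (standard error 0.16, edgeR adjusted *P* = 0.092). It was called with DESeq2 (adjusted *P* = 0.032), with the replicate block (3.1e-04) and without IGF2BP3 IP replicate 1 (log2 fold change 0.76, adjusted *P* = 0.044). With DESeq2 and with the block the enriched members were therefore 4, *RAB8A*, *RAB1B*, *RAB3B* and *RAB36*. DESeq2 called 281 of the 12640 genes that it gave an adjusted *P* enriched (2.22%). The block called 517 of 14507 tested genes enriched (3.56%).

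The abundant Golgi members *RAB2A* and *RAB6A* were at -0.06 and -0.09 in log2 fold change. *RAB18*, found on the ER and on lipid droplets, was at -0.09, with all IGF2BP3 IP libraries below all IgG IP libraries in CPM. Its direction turned to 0.15 with limma-trend on log2(TPM + 1) and to 0.02 after correction for GC content. *RAB2B* was at 0.18, and the other ER and Golgi members were between -0.11 and 0.07.

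**Figure D3:**
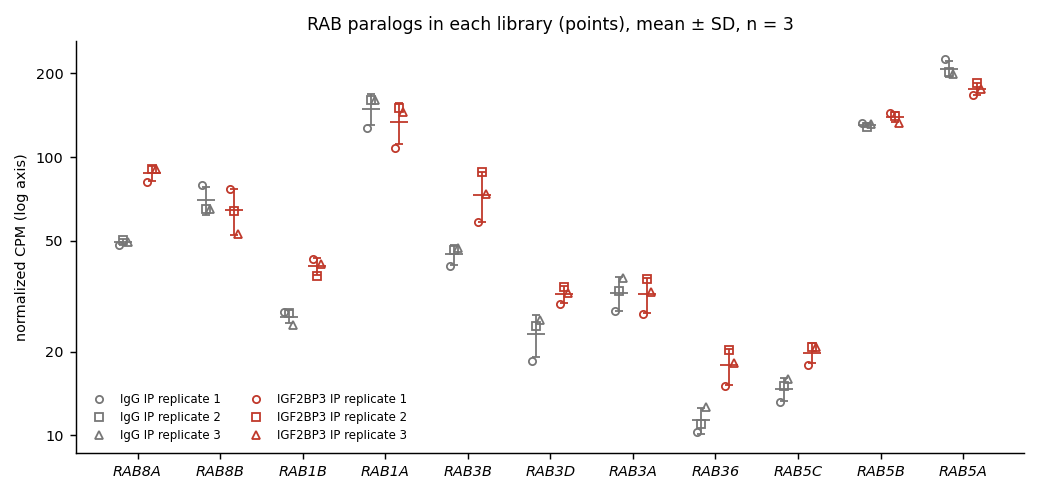
Normalized CPM (log axis) of 11 RAB mRNAs in each library, with 1 point per library, a marker shape per replicate, and a bar for the mean ± SD (n = 3) in grey for IgG IP and red for IGF2BP3 IP. The red points lie above the grey ones for *RAB8A*, *RAB1B*, *RAB3B*, *RAB3D*, *RAB36*, *RAB5C* and *RAB5B*, overlap with them for *RAB8B*, *RAB1A* and *RAB3A*, and lie below them for *RAB5A*.

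The early and recycling endosome group held 13 tested members, of which 7 had positive fold changes and 0 were enriched. The RAB5 proteins, which drive fusion of early endosomes, lay on both sides of 0. *RAB5C* was at 13.1, 15.1 and 15.9 CPM in the IgG IP and at 17.9, 20.8 and 20.8 CPM in the IGF2BP3 IP, all higher, with a log2 fold change of 0.43 (standard error 0.13). *RAB5A* was at 224, 202 and 199 CPM in the IgG IP and at 167, 185 and 176 CPM in the IGF2BP3 IP, all lower, with a log2 fold change of -0.24 (standard error 0.08). *RAB5B* lay between them at 0.09. Neither *RAB5C* nor *RAB5A* passed the thresholds (edgeR adjusted *P* = 0.20 and 0.25). With the replicate block both were under an adjusted *P* of 0.05 (0.0064 and 0.0087), but under the 1.5-fold minimum. The same-strand gene ENSG00000267261 shares 28.8% of the exon bases of *RAB5C* and had 0 counts in every library.

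The recycling endosome relatives *RAB11B* and *RAB11A* were at 0.26 and -0.08. *RAB11A* changed sign, to 0.02, with the GC correction. *RAB4B*, of fast recycling, was at 0.35 from only 10 to 20 counts per library, and *RAB4A* at -0.04. *RAB14*, *RAB15*, *RAB21*, *RAB22A*, *RAB25* and *RAB35*, which act on endosomes and their return routes, were between -0.12 and 0.09. In these 6, only *RAB22A* had groups that did not overlap, at -0.06, which turned to 0.09 with limma-trend on log2(TPM + 1) and to 0.01 after correction for GC content.

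Of the late endosome and lysosome members, 3 were tested and 0 enriched. *RAB7A*, which directs late endosomes to lysosomes, was at 0.23, *RAB9B* at -0.09 and *RAB9A*, of the return route to the Golgi, at -0.22, all with overlapping groups. In the last group, the ciliary *RAB23*, of which the antisense gene *BAG2* (146 to 301 counts) covers 57.8% of the exon bases, and *RAB28* were at -0.06 and -0.11, and *RAB40B* and *RAB40C*, which carry a SOCS box and join ubiquitin ligases, at 0.02 and 0.17.

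Relatives with the same number formed 20 tested pairs, each written with the member of the higher fitted fold change first. A rise of the average ratio mostly follows from this order, and for *RAB27B* over *RAB27A* the average difference was -0.02. In 8 of the 20 pairs the within-library ratio in the IGF2BP3 IP lay above that in the IgG IP in all libraries. The average rise on the log2 scale was 0.95 for *RAB8A* over *RAB8B*, 0.76 for *RAB1B* over *RAB1A*, 0.72 for *RAB3B* over *RAB3A* and 0.67 for *RAB5C* over *RAB5A*. It was 0.51 for *RAB3D* over *RAB3A*, 0.34 for *RAB11B* over *RAB11A*, 0.34 for *RAB5C* over *RAB5B* and 0.33 for *RAB5B* over *RAB5A*. Pairs from the RAB3 and RAB5 families share members, so these are not 8 separate observations, and no such count was made for pairs of other genes.

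The GC content of the transcripts moved with these values. The 17 tested members with at least 50% GC had a median log2 fold change of 0.09 with 13 above 0, and the 29 under 50% had a median of -0.08 with 6 above 0. Over all tested genes the same division gave medians of 0.12 and -0.07. Across the 46 members, Pearson's r of GC content with log2 fold change was 0.50 (Spearman's rho 0.59), and over all tested genes it was 0.36 (rho 0.41). These are correlations across genes of the same 6 libraries, and genes are not independent replicates. With the GC content of the 3′ untranslated region (3′UTR) alone, r was 0.58 across the members. After correction for GC content in each library, r was 0.08 and rho -0.04. The correction removes the trend with GC content over all genes (r 0.0048 afterwards), so a value near 0 follows from it and is not a finding. Whether GC content has a part in the fold changes of single members was not tested.

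In 16 of the 20 pairs the member with the higher fold change was also the one with the higher GC content. *RAB8A* has 52.2% GC against 34.9% in *RAB8B*, and *RAB1B* has 60.4% against 38.2% in *RAB1A*. The 4 exceptions were *RAB27B* over *RAB27A* and the pairs *RAB3B* over *RAB3A*, *RAB3D* over *RAB3A* and *RAB3B* over *RAB3D*. *RAB3B* has 44.7% GC against 60.0% in *RAB3A*, and its log2 fold change after correction for GC content was 0.72. The rise of *RAB8A* over *RAB8B* was 0.72 with the correction, that of *RAB1B* over *RAB1A* 0.47 and that of *RAB11B* over *RAB11A* 0.01.

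**Figure D4:**
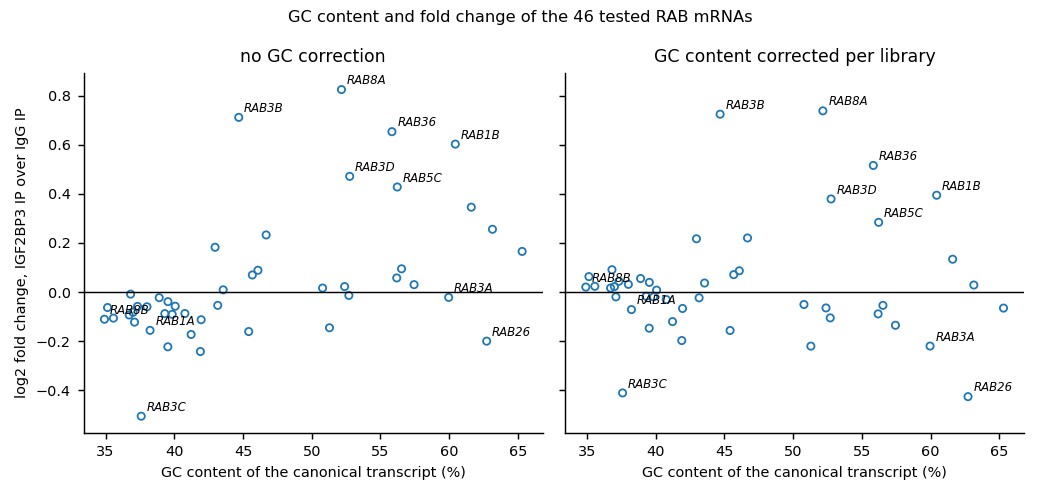
GC content of the canonical transcript (%) against log2 fold change in the IGF2BP3 IP over the IgG IP for the 46 tested RAB mRNAs, without (left) and with (right) a correction for GC content in each library. On the left the points rise with GC content (r = 0.50). On the right they do not (r = 0.08), where the correction itself removes such a trend over all genes. *RAB8A* and *RAB3B* stay at the top in both panels.

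A pair of short motifs linked to IGF2BP3 was counted on the sense strand of the 3′UTRs. CA-rich stretches such as ACACA are bound by its RNA-binding domains, and GGAC is the core of the sequence in which mRNA is methylated at adenosine, a mark that the IGF2BP proteins are reported to read. The motif ACACA was present in 78.3% of the 46 members and in 68.2% of 11449 tested genes with a 3′UTR of at least 100 bases. GGAC was present in 97.8% and 86.8%. A longer 3′UTR has more room for a match. The median number of GGAC per kilobase was 2.10 in the members and 2.28 over these genes, and that of ACACA was 1.19 and 0.93. The number of ACACA per kilobase had an r of 0.00 with the log2 fold change across the members, and that of GGAC an r of 0.37, where GGAC itself is rich in G and C. Over all 11449 genes the values were 0.08 and 0.21. The 3′UTR of *RAB8A* has 4 ACACA in 1930 bases and that of *RAB8B* 4 in 4157 bases, while GGAC occurs 10 and 7 times. The 3′UTR of *RAB3B* has 11971 bases with 17 ACACA and 22 GGAC, and that of *RAB3A* has 686 bases with 0 and 3. A match is a stretch of letters and does not show binding.

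The deviation of replicate 1 was for many members larger in size than the fold change between antibodies. A deviation rests on fewer libraries than a fold change, so the sizes are not on equal terms. No such value was computed for all genes. The median size of the deviation of replicate 1 from replicates 2 and 3 was 0.23 on the log2 scale in the IgG IP and 0.22 in the IGF2BP3 IP, against a median size of 0.10 for the log2 fold change. The mean of the deviations in both groups was larger in size than the log2 fold change in 29 of 46 members. *RAB6B* was lower in replicate 1 by -1.14 in the IgG IP and by -1.09 in the IGF2BP3 IP, at 12.0 CPM against 28.3 and 24.9 CPM in the IgG IP. For *RAB8A* the deviations were -0.05 and -0.15.

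Proteins that load and regulate RABs were covered by lists of their own, and the share of enriched members is given beside the 1.16% of all genes. Among the exchange factors, which switch RABs on, 0 of 36 tested mRNAs passed in either direction, with a median log2 fold change of 0.10. The smallest *P* value was that of *AVL9*, at 0.43 (edgeR adjusted *P* = 0.12). Among the GTPase-activating proteins, which switch RABs off, 1 of 37 was enriched and 0 were lower, with a median of 0.17. The list includes TBC-domain proteins, and whether each of them acts on RABs was not examined here. The enriched mRNA was *TBC1D24*, listed as a TBC-domain protein and known from inherited epilepsy. It was at 37.7, 46.9 and 50.6 CPM in the IgG IP and 69.9, 81.8 and 80.2 CPM in the IGF2BP3 IP. All IGF2BP3 IP libraries were higher, and the log2 fold change was 0.78 (edgeR adjusted *P* = 0.024). With the replicate block, which called 3.56% of all tested genes, 3 of the 37 were enriched, the further ones being *EVI5L* and *TBC1D13*.

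Among RAB effectors, the proteins that active RABs recruit, 1 of 44 was enriched and 0 were lower, with a median of 0.10. It was *VPS39*, a subunit of the HOPS tethering complex that works with RAB7 at lysosomes, at 19.6, 22.1 and 23.3 CPM in the IgG IP and 32.2, 37.9 and 35.5 CPM in the IGF2BP3 IP. Its log2 fold change was 0.70 (edgeR adjusted *P* = 0.030). *RPH3A* and *MICALL1* were called with the replicate block (adjusted *P* = 0.046 and 0.0023). Of the 8 mRNAs for prenylation, escort and GDP dissociation inhibition, 0 passed in either direction. Their median was -0.15, and *CHM*, the escort protein that presents RABs for prenylation, had the smallest *P* value of them at -0.19 (edgeR adjusted *P* = 0.41).

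Among other small GTPases, 0 of 25 ARF and ARL mRNAs and 0 of 20 RAS mRNAs passed in either direction by edgeR, DESeq2 or the replicate block. The medians were -0.10 and -0.11, beside -0.03 for the RAB mRNAs. The smallest *P* values were those of *TRIM23* at -0.26 and *DIRAS1* at 0.40 (edgeR adjusted *P* = 0.20 and 0.28).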

How the data were processed

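RNA from IGF2BP3 IP and IgG IP of WaGa cells was sequenced by the authors with paired-end reads of 150 bp. Per the labels and the submitters' processing notes, reads were aligned to GRCh38 with STAR 2.7.9a and quantified with RSEM, and the methods name GENCODE version 37. The authors deposited whole-number counts per gene without normalization, and TPM and FPKM values. The FPKM values were not used for any result. The counting program and its strand setting are not given in the sources used here. Libraries and replicate numbers come from the labels.

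After filterByExpr and TMM normalization, the counts of all genes were fitted by antibody alone in edgeR 4.0.16 under R 4.3.3 (quasi-likelihood test). Each standard error is the fold change on the log2 scale divided by the root of the F value. Alternatives were DESeq2 1.42.0, limma 3.58.1 (voom on counts, trend on log2 TPM), other normalizations and filters, a GC correction per library (loess, span 0.5), a replicate block and leaving out each library. Scripts were tested on simulated data. Same-numbered libraries deviated together (correlations 0.55, 0.26 and 0.22), but replicates 2 and 3 correlated as much when crossed (0.26 and 0.27). The labels do not say whether they share a lysate or come from separate cultures, so *P* values measure the spread between these libraries.

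GC content, positions and 3′UTRs are of the canonical transcripts of GENCODE version 44, in which 60481 of 60655 identifiers and all 63 RABs were found. Members and lists were chosen with earlier results of these data known. Named are the called RAB mRNAs and their same-numbered relatives, the 5 highest and lowest fold changes, the 5 highest TPM and, from other lists, called mRNAs or the smallest *P* value. Members named beyond that fill the role groups. Some members of the marker and other lists are not reported here.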

Additional observations from a re-analysis of the deposited data

How the results depend on the processing

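The number of enriched RAB mRNAs was 2 with edgeR, and also with RLE factors, library totals, limma-voom, a minimum of 10 counts in every library and the replicate block combined with GC correction, where the 2 were *RAB8A* and *RAB3B* in place of *RAB1B*. It was 4 with DESeq2, without the filter and with the replicate block, and 1 with the GC correction. It was 0 with limma-trend on log2(TPM + 1) or log2(TPM + 0.1) and with a 2-fold minimum. Over all tested genes the main fit called 169, DESeq2 281, the fit without the filter 359, the block 517 and the GC correction 81. RLE factors, library totals, limma-voom and the 10-count minimum called 162, 189, 154 and 168, and the block with GC correction 270. Both limma-trend fits called 0 of all tested genes. The block changed no RAB call other than those of *RAB3B* and *RAB36*. Leaving out 1 library gave 0 to 3 enriched members. It was 0 without IGF2BP3 IP replicate 2 or IgG IP replicate 3. It was 1 without IgG IP replicate 2 or IGF2BP3 IP replicate 3, and 3 without IGF2BP3 IP replicate 1. Over all tested genes these fits, in the same order, called 0, 7, 19, 23 and 244 mRNAs enriched. Without IgG IP replicate 1 the fit called 134, of which 2 were RAB mRNAs. No RAB mRNA was called lower under any of these alternatives.

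The median log2 fold change of the tested RAB mRNAs was -0.03. It was 0.013 with library totals, 0.092 and 0.096 with limma-trend (pseudocounts 1 and 0.1), 0.012 after GC correction and 0.0091 when that correction was combined with the block. Over all tested genes the median was 0.11 and 0.13 with limma-trend. Leaving out 1 library gave medians from -0.065 to 0.016. With the replicate block alone the median was -0.023. The cause of these shifts was not tested.

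Signs turned for members close to 0. Of the 46 tested members, 22 turned with limma-trend on log2(TPM + 1), 17 after GC correction and 5 with library totals. With limma-trend (pseudocounts 1 and 0.1) *RAB10* was at 0.011 and 0.011, *RAB11A* at 0.099 and 0.099, *RAB2A* at 0.18 and 0.19, *RAB3A* at 0.28 and 0.29, and *RAB6A* at 0.087 and 0.088. After GC correction *RAB11A* was at 0.022, *RAB2A* at 0.044 and *RAB8B* at 0.020. In combination with the block they were at 0.026, 0.044 and 0.011. *RAB3A* was at 0.017 with library totals. With 1 library left out, *RAB3A* ran from -0.13 to 0.081 and *RAB8B* from -0.25 to 0.0019.

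Counts of 4 to 14 for *RAB3C* and 10 to 20 for *RAB4B* give little precision. *RAB13* shares 24.8% of its exon bases with another gene on the same strand, which had at most 1 count in a library. The ratio of counts to TPM and length of *RAB13* was 0.154 times the median of the members. This ratio was also low for *RAB4B* (0.199), *RAB30* (0.224), *RAB21* (0.239), *RAB11A* (0.276) and *RAB5C* (0.314), so their TPM and counts differ in what they show.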
